A study of Mus musculus with 9 samples.

Results

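Convergent gene pairs are neighbouring genes on opposite strands that are transcribed towards each other and overlap at their 3′ ends. They were taken from the positions in a table of sciatic nerve RNA-seq counts: 1 row on the + strand starts first, a row on the − strand starts inside its span, and the − row ends after the + row has ended. The mitochondrial chromosome and chromosome 18 were left out. The rule found 1073 such pairs among 3690 overlapping opposite-strand pairs, the others being 969 divergent pairs, which overlap at their 5′ ends, and 1648 nested pairs. The convergent pairs hold 2129 of the 25965 rows of the table, or 8.199%.

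The nerves came from C57BL/6 mice of 3 groups: control littermates, PINCH1 mutants and PINCH2 mutants, with 3 libraries in each. Each library pooled 4 nerves, taken from 1 male and 1 female and stripped of epineurium, so p-values measure the spread between pools. The age is postnatal day 15 by 1 label and P14 by the protocol. The sources used here do not give the alleles or any Cre line behind the mutants. PINCH1 and PINCH2, encoded by Lims1 and Lims2, are LIM-domain adaptors that bind integrin-linked kinase at cell adhesions, where Schwann cells contact the basal lamina.

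When a pair of genes converges, the last exons of both can share the same bases, read on opposite strands. Transcripts normally end a short way after a polyadenylation signal, most often AATAAA, which directs cleavage and addition of the poly(A) tail. Reads from the shared stretch can be given to the correct gene only if the library keeps the strand and the counting uses it in the right direction. The sources used here give neither the strandedness of the library nor the strand setting of the counting, so a read from one gene of a pair cannot be told apart from a read of its partner, and a count under a gene's name is not shown to measure that gene.

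Library totals ran from 957828 to 1204964 counts, and 9674 to 11240 rows had at least 1 count. Genes that nearly every cell uses had few: Actb had 36 to 104 counts in the 9 libraries, Gapdh 4 to 26, Rplp0 43 to 107 and Eef1a1 194 to 431. None of these 4, which were picked after their values were seen, is in a convergent pair. The targeted genes were near the floor, with 17 counts of Lims1 summed over the controls, 4 over the PINCH1 mutants and 10 over the PINCH2 mutants. Lims2 had 15, 9 and 7, so neither could check the genotype. Summed Schwann cell markers, of which 1 (S100b) is in a convergent pair, lay between 13237 and 16831 CPM (counts scaled to the library total) in controls, above the 10280 to 12981 of the PINCH1 mutants and the 10505 to 12488 of the PINCH2 mutants. Fewer Schwann cells and less RNA per cell cannot be told apart in bulk nerve. Neuron markers Rbfox3, Snap25 and Syt1 were at 0 throughout, as were Adipoq and Plin1 of adipocytes. The keratinocyte list summed to 9.57 to 29.1 CPM in controls, 63.1 to 69.95 in PINCH1 mutants and 28.6 to 61.4 in PINCH2 mutants. The PINCH1 mutants lay above the controls, while the PINCH2 mutants overlapped with them. Krt5 and Krt14, the list's defining markers and 2 of its 3 members, were at 0 in all libraries, so these sums are Krt10 alone. Perineurial markers summed to 52.7 to 73.2 CPM in controls, 44.9 to 50.2 in PINCH1 mutants and 43.1 to 64.7 in PINCH2 mutants, and the part of these cells in the results below was not tested.

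The ends of 6 pairs are printed here to show the last bases of both genes. The ends of a pair lie at opposite edges of the overlap, each inside the span of the partner. Each line gives the last 30 bases of a row's annotated transcript, 5′ to 3′ on the gene's own strand, from GENCODE M21 on GRCm38. Capitals mark AATAAA or, where it is absent, ATTAAA, the commonest variant of the signal. The first pair is that of the kinase-like adaptor Ilk and Taf10, a subunit of TFIID in the general transcription machinery. The second, Elovl1 and Cdc20, overlaps by only 53 bp. Cnp and Dnajc7 hold a myelin enzyme gene, Bccip and Dhx32 had nearly equal counts, Wdr54, opposite Rtkn, was the convergent row with the most counts, and Fbxl15 and Cuedc2 came first in the comparison of PINCH1 mutants with controls.
Ilk, chr7:105742896-105742925, + strand: ctgtcacAATAAAgtttattatgaaaacag
Taf10, chr7:105739393-105739422, − strand: ttttgAATAAAaaccgttacctgatttgta
Elovl1, chr4:118432924-118432953, + strand: gaaaaaataaAATAAAaacaagaaaggaaa
Cdc20, chr4:118432901-118432930, − strand: ttttttctAATAAAgttcgtatcttcctta
Cnp, chr11:100591700-100591729, + strand: gccttgttaaAATAAActacctatatatct
Dnajc7, chr11:100582818-100582847, − strand: aaagaaaaagAATAAAatgttttgaccgtt
Bccip, chr7:133721116-133721145, + strand: tAATAAAactatttttttattttaaaatca
Dhx32, chr7:133720942-133720971, − strand: aatctgAATAAAataatgagtttttcagta
Rtkn, chr6:83152550-83152579, + strand: atcaaccATTAAAgttatttaacagctcga
Wdr54, chr6:83149361-83149390, − strand: ccactgccaagaaaactaccatggaaacta
Fbxl15, chr19:46330417-46330446, + strand: aatttcaAATAAAgagctttttaccccttc
Cuedc2, chr19:46329812-46329841, − strand: tcaactttatgtgacatttctcagtgtgtc

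Of these 12 ends, those of Wdr54 and Cuedc2 hold neither motif in the last 30 bases. End sequence was found for 1801 of the 2129 rows. AATAAA stood in the last 30 bases of 830 of them (46.1%) and ATTAAA alone in a further 212 (11.8%), searched on the gene's own strand only. Over all rows with end sequence outside the left-out chromosomes, 19063 of 25406, the shares were 46.0% and 10.7%, so ends in convergent pairs held the motifs about as often as other ends. Among the 783 pairs with sequence for both ends, 262 had a motif at both, 381 at 1 and 140 at neither. A match is a description of these letters and does not show where transcripts end in nerve.

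The overlaps ranged from 1 bp to 163328 bp, with a median of 1676 bp and quartiles of 386 and 5432 bp. In 153 pairs the rows shared no more than 100 bp, and in 157 they shared more than 10000 bp. Both rows of 1046 pairs were found in GENCODE M21, and in 935 of these (89.4%) exons of the pair shared bases, with a median of 308 bp. The other 111 overlapped only through an intron of at least 1 gene. The share with exon overlap was 78.7% of 930 divergent pairs and 40.03% of 1549 nested pairs. Both genes are annotated as protein-coding in 714 of the convergent pairs, 1 is in 341, and neither is in 18. The 26 rows not found in GENCODE M21 count here as not coding, although their type is unknown. Some rows belong to more than 1 arrangement, since 17 rows are in 2 convergent pairs and 446 also overlap another gene in a divergent or nested pair.

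Although few, the rows of convergent pairs carried nearly as many counts as all other rows of the table together. They took 48.6%, 49.7% and 46.8% of the counts in the 3 control libraries. The 3 PINCH1 mutant libraries had 47.7%, 51.6% and 47.8%, and those of PINCH2 mutants 47.8%, 48.4% and 49.3%. The groups overlapped. Among the 100 rows with the most counts, 62 were in a convergent pair. The median convergent row had 21 counts per control library, against 0.0 for the 18283 annotated rows outside every overlapping pair, which held 10.9% of the control counts. Divergent rows that are in no convergent pair had a median of 2.83 and held 5.74% of the counts, and rows of nested pairs alone had a median of 0.667 and held 22.6%. At least 10 counts were reached by 59.6% of the rows in convergent pairs, by 32.3% of those divergent rows, by 22.4% of those nested rows and by 10.3% of the rows outside every overlap.

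Differences between genotypes in this share were within the spread of the pools. It was 48.4 ± 1.45% in controls, 49.03 ± 2.20% in PINCH1 mutants and 48.5 ± 0.768% in PINCH2 mutants (SD, n = 3). The differences from controls were 0.67 percentage points for PINCH1 mutants (two-sided exact permutation p = 0.7) and 0.142 for PINCH2 mutants (exact permutation p = 1.0). PINCH1 mutants exceeded PINCH2 mutants by 0.528 points (exact permutation p = 0.9). With 3 against 3 such a test cannot go below 0.1. The Wilson 95% interval of a library's share spans at most 0.1001 points to either side, which covers counting error only. The second PINCH1 library was the highest of the 9, and without it the difference from controls was -0.6 points. Without the third control library the differences from controls were -0.101 and -0.628 points.

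Within a pair, 1 row usually held nearly all the counts. In 615 pairs at least 1 row reached a mean of 50 counts in controls. The higher row had at least 2 times the count of the lower in 535 of them (87.0%), at least 10 times in 350 (56.9%) and at least 100 times in 89 (14.5%). The median was 14.2-fold, with quartiles of 3.93 and 55.6. Over all convergent pairs together the higher row took 89.5% of the counts. It was the + row in 298 pairs and the − row in 317. The minimum of 50 counts on the higher row favours large folds. The same folds are not given here for divergent, nested or unrelated pairs, so the imbalance is not shown to be particular to convergent pairs.

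**Figure D1:**
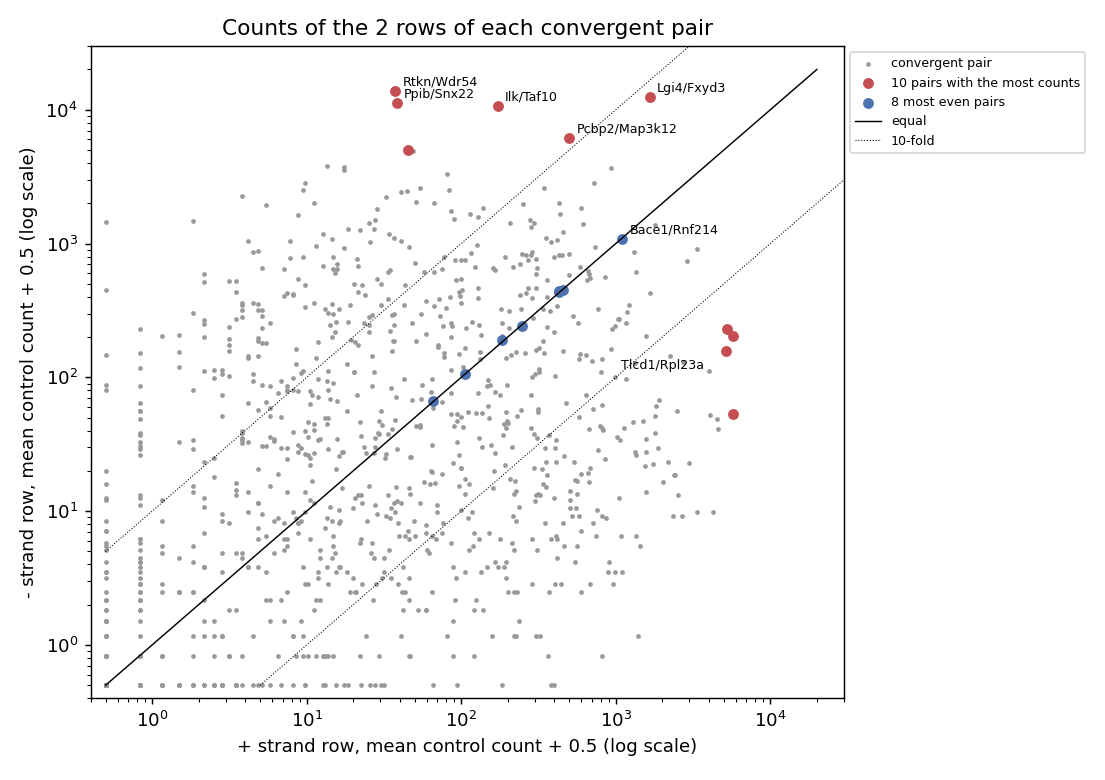
Mean control count plus 0.5 of the + row (x axis, log scale) against that of the − row (y axis, log scale) for each of the 1073 convergent pairs; the solid line marks equal counts and the dotted lines a 10-fold difference. The 10 pairs with the most counts lie off the diagonal on either side, while the 8 most even pairs lie on it from 65.3 to 1103 counts on the + row.

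The same row was the higher one in 9 of 9 libraries in 574 of the 615 pairs (93.3%). The 350 pairs with a 10-fold imbalance, which were chosen for it in the 3 control libraries, are all among these. Counts of longer genes are larger at the same abundance. The higher row had the shorter exons in 343 of the 584 pairs with exon overlap and the longer in 240. Divided by exon length, 366 of the 605 pairs with known lengths (60.5%) were at least 10-fold apart in counts per kb. The part of gene length in the imbalance was not tested. In 164 pairs with 1 gene annotated as protein-coding, the coding row was the higher one in 21 and the other row in 143. Rows not found in GENCODE M21 count here among the other rows.

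The convergent row with the most counts in controls was Wdr54, a WD-repeat protein gene, whose partner Rtkn encodes rhotekin. Wdr54 had 14611, 12667 and 14000 counts in controls, 11101, 14350 and 14194 in PINCH1 mutants, and 12582, 14083 and 14752 in PINCH2 mutants. Rtkn had 26, 43 and 42 counts, then 43, 23 and 18, then 28, 26 and 24. The rows stood 372-fold apart in controls and overlap by 3219 bp, of which 1778 bp are exon in both. Per kb of exon, Wdr54 had 2097 counts and Rtkn 8.67.

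Another of the pairs with the most counts joins Ppib, the gene of cyclophilin B, an endoplasmic reticulum enzyme that helps fold collagen, to Snx22, a sorting nexin gene. Snx22 had 10850, 11973 and 10808 control counts, 11926, 12695 and 12913 in PINCH1 mutants and 9050, 12355 and 10623 in PINCH2 mutants. Ppib had between 17 and 58 in all 9 libraries. Although cyclophilin B is made in most cells, its row was 298-fold below its partner's in controls, and the counts per kb of exon were 11.4 for Ppib and 3878 for Snx22.

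Ilk encodes the kinase-like adaptor that PINCH proteins bind, and it converges on Taf10 on chromosome 7, with both ends printed above. Ilk had 152, 161 and 202 counts in controls, 211, 151 and 199 in PINCH1 mutants, and 189, 236 and 176 in PINCH2 mutants. Taf10 had 10909, 10798 and 10421 in controls, 10578, 10696 and 11081 in PINCH1 mutants, and 10191, 11717 and 9703 in PINCH2 mutants. The groups overlapped for both rows. The log2 fold change in PINCH1 mutants was 0.11 for Ilk (SE 0.18, edgeR adjusted p = 0.959) and 0.01 for Taf10 (SE 0.14). The rows overlap by 3533 bp with 2106 bp of exon in both, and 2106 bp is most of the 2744 bp of Ilk exons. The log2 ratio of Ilk to Taf10 differed by 0.11 (SE 0.27, limma adjusted p = 0.996) in PINCH1 mutants and by 0.25 (SE 0.27, limma adjusted p = 0.999) in PINCH2 mutants.

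Lgi4 encodes a secreted protein through which Schwann cells and axons interact during myelination, and it converges on Fxyd3, a regulator of the sodium pump. Fxyd3 had 12214, 10983 and 14141 counts in controls, 7743, 9451 and 11007 in PINCH1 mutants and 11229, 12849 and 13862 in PINCH2 mutants. Lgi4 had 2084, 1047 and 1856, then 1504, 1597 and 2003, then 1960, 1436 and 1744. This pair had the most counts of all when its rows are summed, and was the least uneven of the 10 pairs with the most counts, at 7.49-fold in controls.

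The remaining 6 of those 10 pairs showed the same 1-sided pattern in both orientations. The − row was higher for Pcbp2, an RNA-binding protein gene, and Map3k12, a stress-responsive kinase gene (500.0 against 6118 mean control counts). The same held for Nid2, the gene of the basement membrane protein nidogen, and 2700060E02Rik (44.7 against 5035). The + row was higher for Myo1h, a myosin gene, against Kctd10 (5733 against 202), and for Lrrc61 against Rarres2, the gene of the chemoattractant chemerin (5281 against 230.0). Tlcd1 had 5149 counts against 158 for Rpl23a, a protein of the large ribosomal subunit that all cells make. D430040D24Rik, a processed transcript with no known protein, had 5743 against 52.7 for Fam178b. In each of these 6 pairs the same row was the higher one in all 9 libraries, and the 10 pairs together took 16.4% of the control counts of convergent rows.

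**Figure D2:**
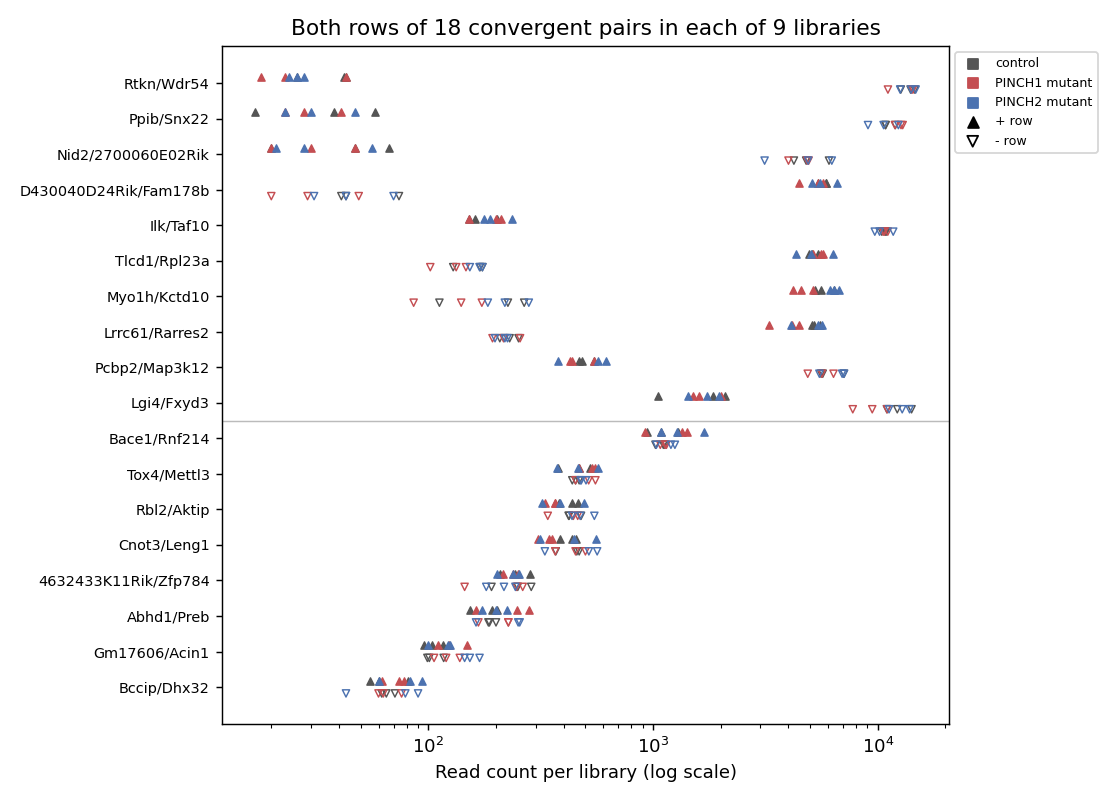
Read counts (x axis, log scale) of the + row (filled, pointing up) and − row (open, pointing down) of 18 convergent pairs in each of the 9 libraries, coloured by genotype; the 10 pairs with the most counts stand above the line and the 8 most even below it. In the upper pairs the triangles of the rows stay apart in every library, while in the lower pairs they mix.

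Genes of the nerve fall on either side of the imbalance. Vinculin (Vcl), which links integrin adhesions to actin, had 48, 40 and 57 control counts, against 4684, 5422 and 4723 for Ap3m1, a subunit of a vesicle adaptor. Mpp6, a scaffold gene of myelinating Schwann cells, had 7, 9 and 9, against 1780, 1656 and 1505 for Dfna5, which encodes a gasdermin. These rows overlap by 9230 bp but share 0 bp of exon. In contrast Elovl1, which encodes an elongase of very long fatty acids, had 43, 63 and 71 against 4, 0 and 0 for Cdc20, an activator of the anaphase-promoting complex. Both rows were low for Srebf1, a regulator of lipid synthesis, with 16, 11 and 1 counts, and Rai1, with 3, 12 and 8.

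Cnp, the gene of an enzyme of non-compact myelin, was close in count to its partner Dnajc7, a co-chaperone gene. Cnp had 779, 873 and 918 counts in controls, 844, 675 and 864 in PINCH1 mutants, and 840, 862 and 759 in PINCH2 mutants. Dnajc7 had 759, 386 and 554, then 330, 243 and 338, then 472, 410 and 457. The Cnp row was the higher one in all 9 libraries, although in the first control library by only 20 counts. Cnp and Dnajc7 overlap by 8912 bp, of which 154 bp are exon in both.

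Genes whose products cut and polyadenylate transcripts are themselves in 5 convergent pairs. Cstf3, a subunit of the cleavage stimulation factor, had a mean of 88.3 control counts against 3.33 for Tcp11l1. Fip1l1, a subunit of the cleavage and polyadenylation factor, had 29.7 against 346 for Lnx1. Cpsf7 had 8.0 against 126 for Tmem216, and Cstf2 had 4.67 against 179 for Nox1, a NADPH oxidase gene with which it overlaps on chromosome X. Thus the processing factor held the lower count in 3 of the 4 pairs with enough counts to compare. The fifth, Adck5 with Cpsf1, overlaps by 8 bp and had 5.33 and 1.0. Dgcr8, which works with Drosha on double-stranded miRNA precursors, had 41.7 counts against 817 for Trmt2a.

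Counts were higher the longer the exon stretch shared with the partner. The median control count of a row was 1.67 where no exon was shared (218 rows), 7.0 for 1 to 100 bp (422 rows), 22 for 101 to 300 bp (502 rows), 57.5 for 301 to 1000 bp (646 rows) and 182 above 1000 bp (293 rows). At least 10 counts were reached by 26.6% of the rows with none and 84.3% of those above 1000 bp. Spearman's correlation across 2081 rows was 0.45 between count and shared exon length, and 0.18 between count and the row's own exon length. The points are rows of the same libraries, and the rows of a pair share their overlap, so these are descriptions.

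**Figure D3:**
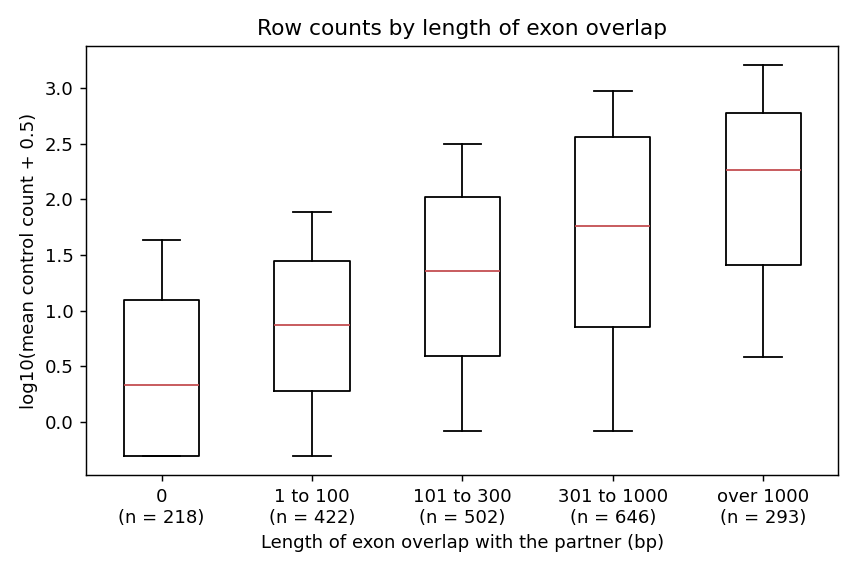
Boxes show log10 of the mean control count plus 0.5 (y axis) of rows in convergent pairs, grouped by the length in bp of exon shared with the partner (x axis); the red line is the median, the box the quartiles and the whiskers the 10th and 90th percentiles. Medians climb from 1.67 counts without exon overlap to 182 counts above 1000 bp.

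Both rows of a pair followed this order. From no shared exon to over 1000 bp, the median of the higher row went from 6.33 to 508 counts and that of the lower row from 0.333 to 33.7. In the 584 pairs with exon overlap and a row of at least 50 counts, shared bases made up a median of 14.7% of the exon length of the higher row and 11.5% of that of the lower. In the 21 such pairs that share only intron the median imbalance was 38.2-fold, against 14.2-fold with exon overlap. Across all 1073 pairs the counts of the rows were positively related (Spearman's correlation 0.44), and across the 615 pairs with a row of at least 50 counts they were negatively related (Spearman's correlation -0.29), a subset that the minimum on the higher row shapes.

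Even pairs were a minority of those with a row of at least 50 counts. In 80 of the 615 pairs (13.0%) the rows were within 2-fold. The 8 most even among the 235 pairs with at least 30 counts on both rows in every control library were chosen for their evenness in controls, so that evenness is not a result. Bace1, the gene of a protease that cuts neuregulin and so acts in myelination, and Rnf214 had means of 1103 and 1088 control counts, and the Bace1 row was the higher in 5 of 9 libraries. Tox4, an HMG-box gene, and Mettl3, the gene of the catalytic m6A methyltransferase, had 458 and 453. Rbl2, of the retinoblastoma family, and Aktip had 428 and 441 with the longest overlap of the named pairs, 11804 bp. Cnot3, a subunit of the deadenylase complex that shortens poly(A) tails, and Leng1 had 426 and 432.

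The other even pairs were lower or held genes of unlike length. Bccip and Dhx32, which overlap by 204 bp near the ends printed above, had 65.3 and 66.0 counts. Abhd1 and Preb had 183 and 191, and 4632433K11Rik and Zfp784 had 245 and 243. Gm17606 and Acin1 had 105 and 106, but with 234 bp of exon for Gm17606 and 10527 bp for Acin1 this was 450.1 against 10.04 counts per kb. Over the 9 libraries, 3 of which chose the pairs, no row of the 8 pairs was always the higher one. The widest split was that of Cnot3 and Leng1, where Leng1 was higher in 7 of 9.

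The precision of a pair's ratio depended on its lower row. The median SD of the log2 ratio within a group was 0.999 where the lower row had a mean of 5 to 10 counts (127 pairs), 0.573 at 10 to 50 (262 pairs), 0.318 at 50 to 200 (132 pairs) and 0.248 above 200 (81 pairs). A pair with a low count on either row thus had an imprecise ratio.

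In PINCH1 mutants against controls, the question was whether rows of convergent pairs, or the balance within pairs, differ with the PINCH1 mutation. No row of a convergent pair passed. Of the 1336 convergent rows tested with edgeR, 0 had an adjusted p under 0.05, against 3 of the 4738 rows tested (0.0633%). DESeq2 called 1, Fbxl15, beside 6 of all 4738 rows. An unadjusted p under 0.05 was found for 67 (5.01%; 43 higher and 24 lower), against 6.37% of all rows tested (108 higher and 194 lower). The groups did not overlap for 167 rows (12.5%; 124 higher and 43 lower), against 13.7% of all rows tested (292 higher and 355 lower). The shares lie below the background. The split by direction differs from that of all rows, and the dependence of the direction on single libraries is given below. The other 793 convergent rows had too few counts to be tested, 165 of them with 0 in every library, and both rows were tested in 517 pairs.

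Fbxl15, an F-box protein gene of a ubiquitin ligase, came first. It had 53, 33 and 43 counts in controls, 123, 78 and 128 in PINCH1 mutants, and 54, 54 and 53 in PINCH2 mutants. All 3 PINCH1 libraries lay above all other libraries, at 103 ± 12.4 CPM against 41.5 ± 12.1 in controls (SD, n = 3). The log2 fold change was 1.31 (SE 0.27, edgeR adjusted p = 0.0817). Its partner Cuedc2 had 449, 562 and 458 counts in controls and 460, 499 and 485 in PINCH1 mutants, a log2 fold change of -0.02 (SE 0.19). The log2 ratio of the rows differed by 1.35 (SE 0.41, limma adjusted p = 0.671).

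Dnajc7 was next, with the counts given above. Each PINCH1 library was below each control, with a log2 fold change of -0.94 (SE 0.22, edgeR adjusted p = 0.21). Without the first control library, the highest of the 3, it was -0.58 (edgeR adjusted p = 0.707). Cnp had -0.12 (SE 0.15). The ratio of Cnp to Dnajc7 differed by 0.75 (SE 0.33, limma adjusted p = 0.88). The Schwann marker sum was also lower in every PINCH1 library than in every control, and its part in these values was not tested.

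The next row, 1700020L24Rik, converges on Mmp28, which encodes epilysin, an extracellular protease. It had 632, 480 and 685 counts in controls, 277, 301 and 450 in PINCH1 mutants and 625, 501 and 582 in PINCH2 mutants, a log2 fold change of -0.83 from controls (SE 0.20, edgeR adjusted p = 0.21). Mmp28 had 18, 14 and 23 counts in controls, 42, 23 and 42 in PINCH1 mutants and 28, 41 and 28 in PINCH2 mutants. The higher row was thus below controls in PINCH1 mutants and the lower row above or level with them, and the ratio differed by -1.74 on the log2 scale (SE 0.36, limma adjusted p = 0.393).

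B630019A10Rik, annotated as antisense, had 82, 89 and 86 counts in controls and 172, 129 and 160 in PINCH1 mutants (log2 fold change 0.83, SE 0.21, edgeR adjusted p = 0.281). Rnf10, a RING-finger protein gene, had 16, 27 and 37 in controls and 11, 5 and 9 in PINCH1 mutants, at -1.67 (SE 0.44, edgeR adjusted p = 0.285). Its partner Pop5, a subunit of RNase P, had 17, 25 and 29 in controls, 49, 22 and 28 in PINCH1 mutants and 33, 36 and 33 in PINCH2 mutants. The ratio of Pop5 to Rnf10 differed by 2.03 on the log2 scale (SE 0.30, limma adjusted p = 0.111), the smallest p of any convergent pair.

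**Figure D4:**
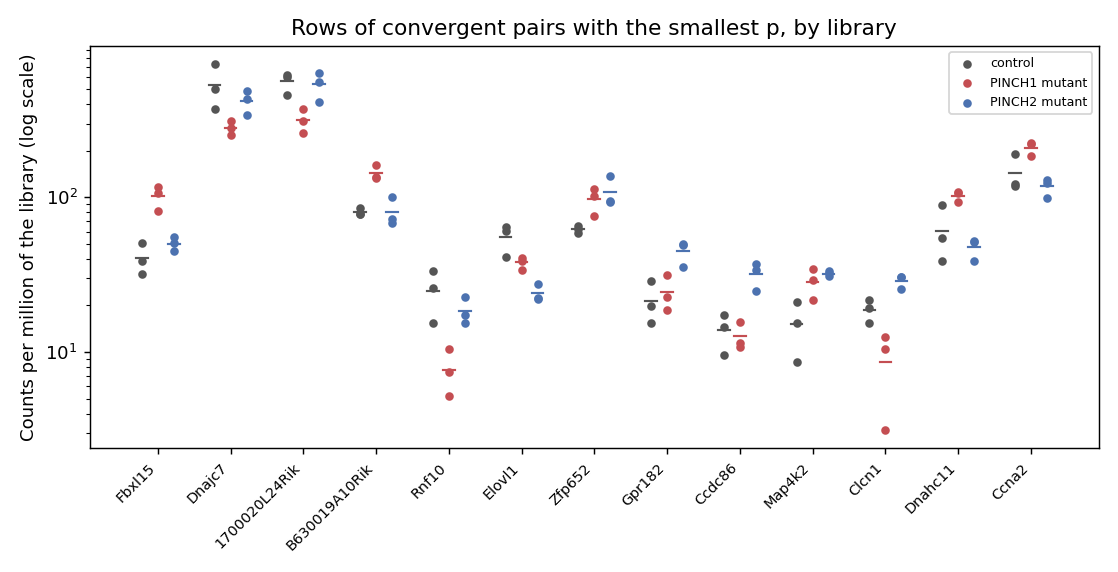
CPM by library total (y axis, log scale) for convergent rows (x axis), with 1 point per library and a line at the mean of each genotype. The rows had the smallest edgeR p in each comparison among those whose groups do not overlap, so their separation was a condition of the choice. Fbxl15 in PINCH1 mutants stands above the other 6 libraries, and Elovl1 in PINCH2 mutants below the controls; none of these rows passed the adjusted test.

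The comparison of PINCH2 mutants with controls had 0 of 1336 convergent rows past the threshold with edgeR and 0 with DESeq2, against 1 of 4738 rows tested with edgeR (0.0211%). An unadjusted p under 0.05 was found for 32 convergent rows (2.40%; 24 higher and 8 lower), against 4.26% of all rows (79 higher and 123 lower), and the groups did not overlap for 92 (6.89%; 63 higher and 29 lower), against 9.05% of all rows (201 and 228). The smallest adjusted p among convergent rows was 0.999 with edgeR.

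Elovl1 came first, with 27, 27 and 23 counts in PINCH2 mutants, 36, 39 and 47 in PINCH1 mutants and the control values given above. Each PINCH2 library lay below each control, at 24.8 ± 3.32 CPM against 55.8 ± 10.1 (SD, n = 3), a log2 fold change of -1.17 (SE 0.31, edgeR adjusted p = 0.999). Its partner Cdc20 had at most 5 counts in any library and was not tested. The other 4 rows in order were higher in each PINCH2 library than in each control, again with edgeR adjusted p = 0.999. As above, separated groups were a condition of the choice of all 5 rows. Zfp652, a zinc finger gene, had 65, 68 and 65 counts in controls, 134, 112 and 100 in PINCH2 mutants and 80, 98 and 136 in PINCH1 mutants. Gpr182, a receptor gene of endothelium, had 16, 30 and 22, then 48, 60 and 37, then 24, 18 and 38. Endothelial marker sums were 7.66 to 12.7 CPM in controls and 5.14 to 9.13 in PINCH2 mutants. Ccdc86 had 18, 10 and 16 in controls, 33, 30 and 39 in PINCH2 mutants and 12, 15 and 13 in PINCH1 mutants. Map4k2, a kinase gene, had 9, 22 and 17, then 30, 39 and 35, then 31, 33 and 26. Zfp652 (log2 fold change 0.65) and Map4k2 (0.92) were also higher in each PINCH1 library than in each control, and neither passed. Gpr182 and Ccdc86 in PINCH1 mutants overlapped with controls.

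The comparison of the mutants with each other uses no controls in its contrast. With edgeR 0 of 1336 convergent rows passed and with DESeq2 also 0, against 4 of 4738 rows tested with edgeR (0.0844%). An unadjusted p under 0.05 was found for 80 rows (5.99%; 43 higher and 37 lower in PINCH1 mutants), against 6.35% of all (138 and 163), and the groups did not overlap for 152 (11.4%; 90 higher and 62 lower), against 11.0% of all (257 and 264).

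Clcn1, a chloride channel gene, had 11, 3 and 15 counts in PINCH1 mutants and 25, 37 and 32 in PINCH2 mutants (log2 fold change -1.73, SE 0.42, edgeR adjusted p = 0.213). Dnahc11, an axonemal dynein gene, had 98, 103 and 130 against 50, 63 and 41. Ccna2, the gene of cyclin A2, had 196, 215 and 265 against 127, 120 and 130, and its partner Exosc9, a subunit of the RNA exosome, had 203, 119 and 184 against 25, 94 and 40. Both rows of this last pair were higher in each PINCH1 library than in each PINCH2 library, which for Ccna2 was a condition of the choice. Yet Exosc9 spanned 24 to 150 among controls alone. The rows 1700020L24Rik and B630019A10Rik, described above, were also among the first 5, at -0.78 (SE 0.20) and 0.81 (SE 0.21), with edgeR adjusted p = 0.213 for each.

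The ratio of the rows was tested for every overlapping pair with a mean of at least 5 counts on both rows, 1148 in all, of which 602 are convergent. With limma, 0 convergent pairs passed in each of the 3 comparisons, and the share called among all 1148 was 0.0% in each. An unadjusted p under 0.05 was found for 25 convergent pairs (4.15%) in PINCH1 mutants against controls, beside 5.4% of all pairs. It was found for 21 (3.49%) in PINCH2 mutants against controls, beside 4.44%, and for 28 (4.65%) between the mutants, beside 4.79%. The median SE of a ratio change was 0.42 on the log2 scale, which limits the changes that a typical pair can show.

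The rows of a pair moved together little more often than not. In the 517 pairs with both rows tested, log2 fold changes had the same sign in 279 pairs (54.0%) for PINCH1 mutants against controls, 289 (55.9%) for PINCH2 mutants against controls and 287 (55.5%) between the mutants. Spearman's correlation across pairs was 0.10, 0.10 and 0.14. In 179 convergent neighbours that do not overlap but lie within 5000 bp the shares were 52.5%, 45.3% and 55.3%. The comparisons share libraries, and the rows of a pair share theirs. In 442 of the pairs the median absolute log2 fold change in PINCH1 mutants was 0.11 for the higher row and 0.21 for the lower. In PINCH2 mutants these medians were 0.09 and 0.18. The rows were labelled by their counts and low counts vary more, so this order is not a result about the lower rows.

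**Figure D5:**
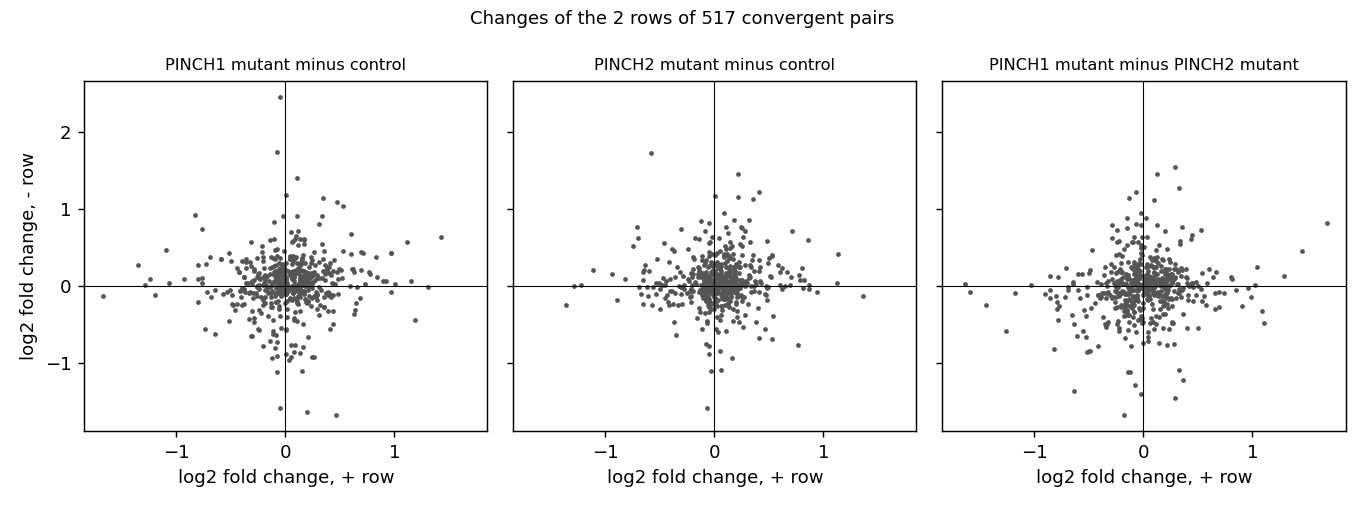
Log2 fold change of the + row (x axis) against that of the − row (y axis) in 517 convergent pairs, 1 point per pair, for each of the 3 comparisons. The points form a cloud around 0 with Spearman's correlation between 0.10 and 0.14.

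The convergent rows leaned slightly above 0 against controls. Of the 1336 rows, 782 (58.5%) had a positive log2 fold change in PINCH1 mutants and 786 (58.8%) in PINCH2 mutants, against 47.8% and 50.7% of all rows tested. Their medians were 0.05 and 0.03, and those of all rows -0.02 and 0.004. The 2 comparisons share their controls. The size of the lean depended on single libraries. Without the second PINCH1 library 48.3% were above 0 in PINCH1 mutants, against 47.6% of all rows. Without the third control library 53.04% and 50.5% were, against 48.5% and 50.1% of all rows. Leaving out the first control library gave 67.2% and 62.4%, against 49.5% and 48.8% of all rows. Leaving out the first PINCH1 library gave 66.0% in PINCH1 mutants, against 47.1%. With upper-quartile scaling the share in PINCH2 mutants was 51.05%, and that of all rows was 45.8%.

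Lists of nerve genes are given for the whole table because few of their members are in convergent pairs. With edgeR, 0 members of any list passed in any comparison. Of 18 myelin rows, 2 are in convergent pairs (Cnp and Mpp6); of 16 tested, 3 were above and 13 below 0 in PINCH1 mutants against controls (median log2 fold change -0.28) and 4 and 12 in PINCH2 mutants (-0.22). Of 15 tested lipid synthesis rows, 4 were above and 11 below 0 in PINCH1 mutants (-0.32), and 5 and 10 in PINCH2 mutants (-0.18). Of 13 adhesion rows, which include Ilk and Vcl, 8 were above and 5 below 0 in PINCH1 mutants (0.05) and 3 and 10 in PINCH2 mutants (-0.28). The medians of all rows tested were -0.02 and 0.004. Schwann marker sums were lower in both mutants than in controls, as given above, and their part in these values was not tested. Of 20 rows of 3′ end processing, 6 could be tested, with 5 above and 1 below 0 in PINCH1 mutants (0.21) and 4 and 2 in PINCH2 mutants (0.09).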

How the data were processed

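Per the labels' protocols, TruSeq libraries were made from total RNA of pooled nerves. The submitters' processing notes name HISAT2 2.0.5, Trim Galore 0.4.2, cutadapt 1.9.1 and the build GRCm38. The sources used here do not give the counting tool, strand setting or annotation release. The deposited table holds whole-number read counts per gene row, with no scaling for depth or length; 0 columns of per-sample values were left unused. Odd values made up 83.6% of those from 1 to 4, and what this does to low counts was not tested. A count of 0 allows up to 3 counts (2.49 to 3.13 CPM), counting error only.

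Exon overlap, gene types and end sequences came from GENCODE M21, which matched 2103 of the 2129 rows. Rows were tested with edgeR 4.0.16 (quasi-likelihood, filterByExpr, TMM, all 9 libraries, genotype as the term) in R 4.3.3, with Benjamini-Hochberg adjustment over all 4738 rows and a threshold of 0.05. Ratios of paired rows, log2 of counts plus 0.5, were tested with limma 3.58.1 over 1148 pairs. Both procedures were run on simulated data, where both missed most 2-fold changes. The ratio test also missed most 4-fold changes. A row or pair that did not pass is thus not shown to be unchanged. Means with SD are TMM-scaled CPM. Alternatives were other scalings, filters, pseudocounts and overlap limits, DESeq2 1.42.0, the 6 libraries compared, a replicate block and each library left out. Counts per kb, a floor of 3 counts on the lower row and a variance trend for the ratio were added after seeing the data.

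Named pairs are the 10 with the most control counts, the 8 most even, those with a nerve gene, and those of the 5 rows with the smallest p in each comparison whose groups do not overlap. The 3′ end and double-stranded RNA list members are also named. Members and lists were chosen with earlier results of these data known. The samples' p-values rest on 3 pools a group.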

Additional observations from a re-analysis of the deposited data

How the results depend on the processing

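With edgeR the main count of convergent rows past the threshold was 0 in each comparison. For PINCH1 mutants against controls, DESeq2 called 1 of 1336 (Fbxl15), beside 6 of all 4738 rows tested. The replicate block also called 1 (Fbxl15, edgeR adjusted p = 0.049), beside 5 of 4738. Both no filter and a filter of 1 CPM in 3 libraries called 3 (1700020L24Rik, Dnajc7 and Fbxl15). With no filter these were 3 of 1964 convergent rows, beside 15 of all 15595 rows. With the 1 CPM filter they were 3 of 1756, beside 16 of 10577. Leaving out 1 library gave 0 to 3. The 3 without the second control library were D230025D16Rik, Dnajc7 and Exosc9, of 1369 tested, beside 9 of all 5110 rows. For PINCH2 mutants the count was 0 under every alternative run. Between the mutants it was 3 with no filter, beside 20 of all 15595 rows, and 7 with the 1 CPM filter, beside 27 of 10577. With the 6 libraries compared it was 1 (Exosc9), beside 8 of 4139. With the replicate block it was 1 (Oraov1, edgeR adjusted p = 0.0043), beside 6 of 4738. With a library left out it was 0 to 1, the 1 without the second control library standing beside 8 of 5110. Correlations of same-numbered deviations between groups ran from -0.1098 to 0.2498. No differently numbered ones were set beside them, so whether the replicate numbers pair the samples is not settled. A changed ratio was called in 1 pair for PINCH1 mutants (Pop5 and Rnf10, limma adjusted p = 0.0308) with a mean of at least 10 counts, and in 0 under the other ratio alternatives. With a library left out, the difference in share from controls ran from -0.6 to 1.344 points for PINCH1 mutants (-0.101 without the third control) and from -0.628 to 0.808 for PINCH2 mutants (-0.266 without the third PINCH2 library), and between the mutants from -0.742 to 1.202. At least 10-fold imbalance was found in 178 of 329 pairs (54.1%) with overlaps of at most 2000 bp, a smaller set by construction, and in 256 to 412 pairs under the other settings that keep that fold; 427 were at least 5-fold apart. The 5 rows named for each comparison kept their direction under all alternatives run. They were chosen for a small p and separated groups in the same libraries, so a reversal was unlikely and this gives them no support. Apart from the alternatives' own construction, the cause of the shifts above was not tested.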
